A study of Mus musculus with 12 samples.

Results

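Hematopoietic stem cells (HSCs) of mice given pIpC were compared by the number in the titles of their RNA-seq libraries. The 2 samples with the higher numbers, WT207 and KO209, stood on 1 side and the 4 with the lower numbers, KO176, KO177, WT178 and WT180, on the other. The members are therefore the 2 samples of the higher numbers, out of 6 samples in the whole series, and each sample is the sum of 2 libraries that carry its number. KO is Ythdc1Δ/Δ, from floxed Ythdc1 mice with Mx1-Cre, and WT is Ythdc1+/+ with Mx1-Cre, so each side held both genotypes and genotype entered the model as a covariate. All groups shared the C57B6 strain, the Mx1-Cre transgene, bone marrow as the tissue and, by the study's methods, repeated pIpC injections and an age of 8 weeks. The labels do not say what the number marks, and a mouse, a litter, a day of injection, a sort or a sequencing run cannot be told apart. Mx1-Cre acts in every cell that responds to interferon, not in HSCs alone, and the methods name CD117 beads followed by cell sorting.

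pIpC is a synthetic double-stranded RNA. Sensors such as MDA5 and TLR3 detect it and cells release type I interferon, which binds IFNAR1 and IFNAR2 and, through JAK1 and TYK2, activates transcription factors. The complex ISGF3, of which IRF9 is a subunit, binds the interferon-stimulated response element (ISRE) of many target genes. Interferon also drives dormant HSCs into division for a time, and it induces the Cre of this mouse line.

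The polyadenylated RNA of the 12 libraries gave 20809936 to 24563170 counts each. KO209 and WT207 summed to 45939230 and 44317995 counts, and the 4 other samples to between 42098649 and 48095239. Ythdc1, the deleted gene, encodes the nuclear m6A reader and spans 86804221 to 86836659 of chromosome 5 (mm10). Its level was 70.3 CPM (counts scaled to library size after TMM) in KO209, 93.6 CPM in WT207 and, in KO176, KO177, WT178 and WT180 in turn, 56.2, 69.5, 75.7 and 72.1 CPM. The number ranges overlapped, and edgeR's quasi-likelihood test gave KO209 and WT207 over the 4 others a log2 fold change of 0.25 with a standard error of 0.12 (adjusted p = 0.28). Counts over all exons do not check a deletion of part of the gene. Kit, Procr, Mecom and Hlf, genes of HSCs, were detected in every sample, Kit at 159 to 269 CPM. Slamf1, which encodes the HSC antigen CD150, was at 5.98 to 10.9 CPM. Cd48 and Flt3, which mark progenitors beyond the long-term HSC, were at 244 to 388 CPM and at 326 to 451 CPM.

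The promoters printed here were picked because they hold an ISRE core, so its presence in each follows from the choice. They belong to Mndal (the first of 2 entries with a core), Irgm1 and H2-T22, which passed the test, and to Ifit1 and Isg15, which did not. The last 2 genes were added after their values were seen. Each runs from 250 bases before to 50 bases after a gene start of RefSeq on GRCm38.p6, 5′ to 3′ on the gene's strand, and capitals mark every match to the ISRE core GAAANNGAAA on either strand.
Mndal (chr1:173880138-173880437, minus strand): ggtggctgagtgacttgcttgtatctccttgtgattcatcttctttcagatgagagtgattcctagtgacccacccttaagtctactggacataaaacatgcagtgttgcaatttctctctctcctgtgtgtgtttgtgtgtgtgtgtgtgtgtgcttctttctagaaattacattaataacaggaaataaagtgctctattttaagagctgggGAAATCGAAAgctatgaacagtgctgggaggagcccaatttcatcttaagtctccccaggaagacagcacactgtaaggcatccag
Irgm1 (chr11:48871371-48871670, minus strand): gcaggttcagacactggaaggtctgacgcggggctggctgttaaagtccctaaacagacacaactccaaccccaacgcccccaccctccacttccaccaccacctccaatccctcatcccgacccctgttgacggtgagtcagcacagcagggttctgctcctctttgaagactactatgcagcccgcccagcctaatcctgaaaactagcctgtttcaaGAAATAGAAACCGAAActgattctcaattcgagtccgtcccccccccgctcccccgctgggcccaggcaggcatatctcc
H2-T22 (chr17:36042693-36042992, minus strand): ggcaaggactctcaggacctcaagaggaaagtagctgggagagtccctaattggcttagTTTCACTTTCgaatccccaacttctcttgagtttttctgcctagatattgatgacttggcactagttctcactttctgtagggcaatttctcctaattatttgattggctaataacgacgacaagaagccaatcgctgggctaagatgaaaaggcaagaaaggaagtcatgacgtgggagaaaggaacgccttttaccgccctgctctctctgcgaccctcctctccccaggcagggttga
Ifit1 (chr19:34640639-34640938, plus strand): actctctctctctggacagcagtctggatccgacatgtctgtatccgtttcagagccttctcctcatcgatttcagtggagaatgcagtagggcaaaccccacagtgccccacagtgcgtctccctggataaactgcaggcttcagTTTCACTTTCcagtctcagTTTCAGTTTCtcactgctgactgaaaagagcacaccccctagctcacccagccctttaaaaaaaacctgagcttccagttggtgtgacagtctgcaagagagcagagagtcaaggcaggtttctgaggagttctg
Isg15 (chr4:156200769-156201068, minus strand): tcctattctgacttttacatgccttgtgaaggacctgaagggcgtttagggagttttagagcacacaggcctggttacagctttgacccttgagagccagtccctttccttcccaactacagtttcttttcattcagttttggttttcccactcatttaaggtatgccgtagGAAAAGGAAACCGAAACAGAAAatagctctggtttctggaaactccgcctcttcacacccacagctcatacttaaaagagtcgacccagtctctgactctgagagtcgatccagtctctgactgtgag

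The core began 36 bases before the start of Mndal and 191 bases before that of H2-T22. Irgm1 held 2 overlapping cores, Ifit1 held 2 and Isg15 held 3 that overlap. Of 32851 promoter entries 3.44% held an ISRE core and 8.30% a core of the interferon-gamma element GAS (TTCNNNGAA), both strands searched. Among interferon-stimulated genes 70 of the 90 tested had an entry and 32 of these held an ISRE core, and among the guanylate-binding proteins (GBPs) and immunity-related GTPases (IRGs) it was 10 of 11. The genes called lower in KO209 and WT207 had entries for 31 of 48, with an ISRE core in 4. None of the 24 genes called higher that had an entry held one. Of all 12248 tested genes with an entry 3.94% held an ISRE core, so that none among 24 is close to this share. Of the 5 called interferon-stimulated genes, Mndal alone had it, Irf9 and Xaf1 had entries without it in these windows, and Rtp4 and Oas2 had no entry. A match describes letters only.

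Across the transcriptome, 93 of 19259 tested genes passed an adjusted p of 0.05 (0.483%), 45 of them higher (0.234%) and 48 lower (0.249%) in KO209 and WT207. Here and in what follows a gene is called, passes, rises or falls by edgeR unless another tool is named. An unadjusted p under 0.05 was reached by 1945 genes with a higher and 1559 with a lower estimate, and in 2791 genes KO209 and WT207 lay above all 4 others, in 2296 below. The median log2 fold change of all tested genes was 0.03. Of the 19259 genes 10430 had a higher and 8829 a lower estimate, the background for the sign counts of lists below. Among the 9625 genes at 8 CPM or more 4388 had a higher and 5237 a lower one. Of the 93 genes, 91 had the same sign within KO (KO209 against KO176 and KO177) as within WT (WT207 against WT178 and WT180). They were picked by a number range term common to both genotypes, which favours such agreement. KO209 and WT207 give 1 title number per genotype, and since no label says that samples are separate mice, p-values measure a spread that may be technical. DESeq2 called 806 genes (4.19%) and voomLmFit with the number as a random block 1478 (7.67%), and without KO209 edgeR called 10, without WT207 32, without WT180 42.

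By median log2 fold change, GBPs and IRGs and interferon-stimulated genes stood furthest from 0 among the gene lists, and they were lower in KO209 and WT207. By share of called genes erythroid markers stood ahead, with 5 higher and 1 lower of 17. Of 171 tested members of the lists of interferon-stimulated genes, GBPs and IRGs, interferon receptors and factors, nucleic acid sensors and MHC class I genes, 148 had a lower estimate in KO209 and WT207, 8 fell past the test and 0 rose. These 8 were Irf9, Irf8, Rtp4, Mndal, Xaf1, Oas2, Irgm1 and H2-T22, of the 48 genes called lower (0.249% of all tested). All 8 had a lower estimate without any 1 sample, but 0 of them passed without KO209 (lowest adjusted p = 0.403) or without WT207 (lowest adjusted p = 0.1), 3 without WT180 and 5 without KO176, and DESeq2 called all 8. In these sorted populations fewer responding cells and less RNA of a gene per cell cannot be told apart.

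At the level of signalling, no receptor gene passed. Ifnar1, which encodes a chain of the type I interferon receptor, was at 66.4 and 66.1 CPM in KO209 and WT207 against 58.7, 58.0, 59.3 and 59.2 CPM in KO176, KO177, WT178 and WT180, an order of values used from here on. Ifnar2, the other chain, was at 106 and 113 CPM against 141, 130, 118 and 105 CPM. Neither passed the test, with log2 fold changes of 0.17 (adjusted p = 0.377) and -0.17 (adjusted p = 0.481) by edgeR. Jak1, the kinase bound to the receptor, was at 243 and 213 CPM against 149, 171, 179 and 195 CPM, with the 2 samples above the 4 (log2 fold change 0.40, adjusted p = 0.144). The chains of the interferon-gamma receptor gave estimates of the other sign, -0.40 for Ifngr1 (adjusted p = 0.194) and -0.29 for Ifngr2 (adjusted p = 0.227).

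Among the transcription factors of the pathway Irf9 and Irf8 fell. Irf9, the DNA-binding subunit of ISGF3 and itself an interferon target (chromosome 14, 55603571 to 55610030), was at 97.8 CPM in KO209 and 122 CPM in WT207 against 167, 163, 186 and 190 CPM. Both samples lay below all 4 others, with -0.69 as log2 fold change (standard error 0.10, adjusted p = 0.0177 by edgeR). Irf8, a factor of interferon signalling that also directs monocyte and dendritic cell development (chromosome 8, 120736358 to 120756694), was at 110 and 101 CPM against 550, 340, 257 and 339 CPM, a 3.53-fold difference of means (log2 fold change -1.78, standard error 0.25, adjusted p = 0.0493). Stat2, which encodes another subunit of ISGF3, overlapped between the ranges, at 30.1 and 35.9 CPM against 39.6, 32.8, 34.4 and 51.4 CPM. Of the 27 genes of the receptor and factor list, 2 fell, 0 rose, and the median log2 fold change was -0.09.

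A pair of regulators of the response had larger estimates that did not pass by edgeR, although DESeq2 called both (adjusted p = 0.0011 for Irf7 and 0.0002 for Usp18). Irf7, which amplifies interferon production, was at 41.5 and 43.8 CPM against 409, 196, 152 and 413 CPM (log2 fold change -2.78, standard error 0.70, adjusted p = 0.21). Usp18, which removes ISG15 from proteins and restrains the receptor, was at 50.5 and 51.1 CPM against 309, 166, 158 and 306 CPM (log2 fold change -2.21, standard error 0.46, adjusted p = 0.161). For both genes the 2 samples lay close together and the 4 others fell into a higher pair, KO176 and WT180, and a lower pair, KO177 and WT178.

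Interferon-stimulated genes (ISGs) as a list had a median log2 fold change of -0.83. Of 90 tested, 85 had a lower estimate, 62 of them with an unadjusted p under 0.05 (8.09% of all genes), 5 fell past the adjusted test and 0 rose. Rtp4, a chaperone of G protein-coupled receptors, was at 108 and 92.5 CPM against 330, 285, 265 and 429 CPM (log2 fold change -1.71, standard error 0.21, adjusted p = 0.0244). Oas2, an oligoadenylate synthetase that activates RNase L, was at 16.2 and 15 CPM against 66.5, 45.0, 45.2 and 73.5 CPM (log2 fold change -1.88, standard error 0.26, adjusted p = 0.0481). Xaf1, which promotes apoptosis, was at 38.9 and 47.9 CPM against 119, 98.9, 96.9 and 165 CPM (log2 fold change -1.47, standard error 0.22, adjusted p = 0.0472). In each of these genes WT180 was highest and KO209 and WT207 lay below all 4 others.

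Mndal, of the nuclear PYHIN family of DNA-binding proteins, fell less, with 119 and 133 CPM against 250, 191, 197 and 223 CPM (log2 fold change -0.77, standard error 0.13, adjusted p = 0.0402). Its family has close copies, and reads that map to several places were not counted. Ifi35 (log2 fold change -1.04, adjusted p = 0.0532), the RNA editor Adar (-0.89, adjusted p = 0.0608) and the nuclear body component Sp100 (-0.78, adjusted p = 0.0617) came next by edgeR without passing. All 3 had both samples below the 4 others.

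The classic targets Ifit1, Isg15 and Mx1 were not called by edgeR, while DESeq2 called all 3 (adjusted p = 0.0003, 0.0289 and 0.0018). Ifit1, which binds RNA that lacks a methylated cap, was at 16.6 and 23.8 CPM against 150, 68.2, 75.2 and 148 CPM (log2 fold change -2.46, adjusted p = 0.194). Isg15, the ubiquitin-like modifier, was at 7.06 and 12.1 CPM against 87.9, 29.6, 25.0 and 68.7 CPM (log2 fold change -2.47, adjusted p = 0.304). Mx1, whose promoter drives the Cre of these mice, was at 1.65 and 1.58 CPM against 20.6, 8.23, 5.50 and 16.7 CPM (log2 fold change -2.98, adjusted p = 0.234). These genes differed more between number ranges than Irf9 did, and also more among the 4 other samples. Ly6a, which encodes the Sca-1 antigen of HSC gates and responds to interferon, was at 153 and 176.98 CPM against 520, 312, 270 and 516 CPM (log2 fold change -1.29, adjusted p = 0.222).

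The plot of interferon gene levels by sample sets these genes side by side, with the called genes on the left.

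**Figure D1:**
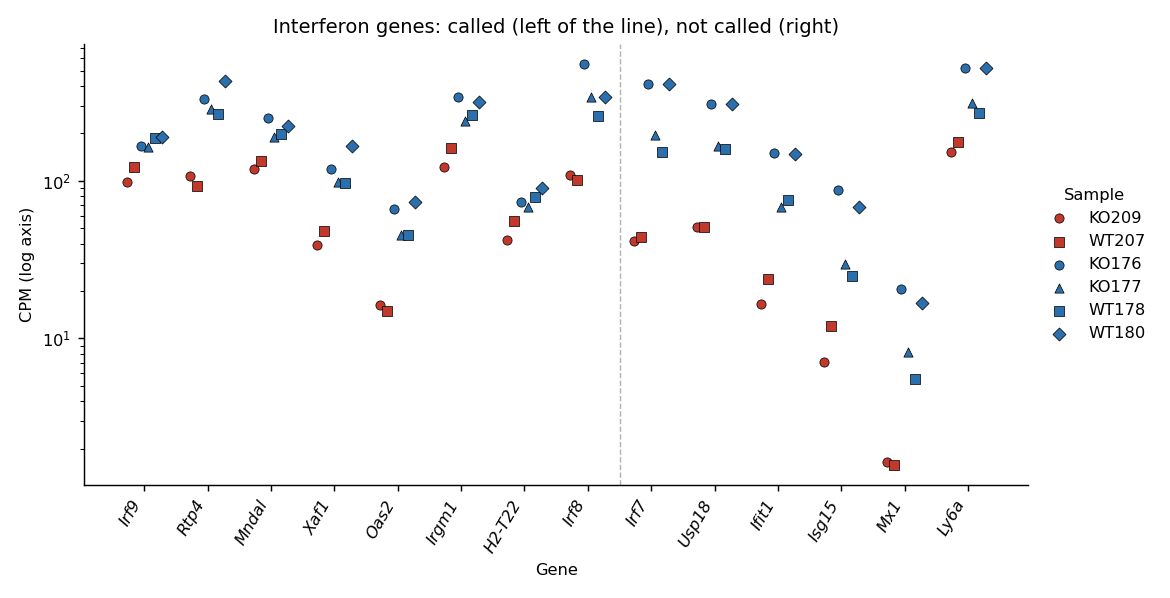
Levels of 14 interferon pathway genes in the 6 samples, in CPM on a log axis, 1 point a sample, red for KO209 and WT207 and blue for the 4 other samples. In all 14 genes both red points lie below the blue ones, and from Irf7 to Ly6a, which were not called, the blue points of KO176 and WT180 lie above those of KO177 and WT178.

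The order of the samples was shared by most of the list. KO209 and WT207 were the 2 lowest of 6 samples in 73 of the 90 ISGs (81.1%, against 11.9% of all tested genes), and KO176 and WT180 the 2 highest in 79 (87.8%, against 6.96% of all). The mean deviation of the 90 genes from their own 6-sample mean, on the log2(CPM + 0.5) scale, was -0.76 in KO209, -0.65 in WT207, 0.05 in KO177, -0.01 in WT178, 0.65 in KO176 and 0.71 in WT180. Summed over the list, ISG levels were 9142 to 9851 CPM in KO209 and WT207 and 13647 to 20067 CPM in the 4 others. The samples of a genotype therefore did not keep together, and the median estimate for genotype in the same model was -0.02. With DESeq2 58 ISGs fell (2.58% of all genes did) and 0 rose (1.60% of all), and with voomLmFit 57 fell (4.22%) and 0 rose (3.45%).

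Both genotypes gave the same direction. Within KO the median of the 90 ISGs was -0.95 and 85 had a lower estimate in KO209, and within WT the median was -0.78 and 86 were lower in WT207. Here 1 sample stands against 2, with the spread pooled over genotypes.

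**Figure D2:**
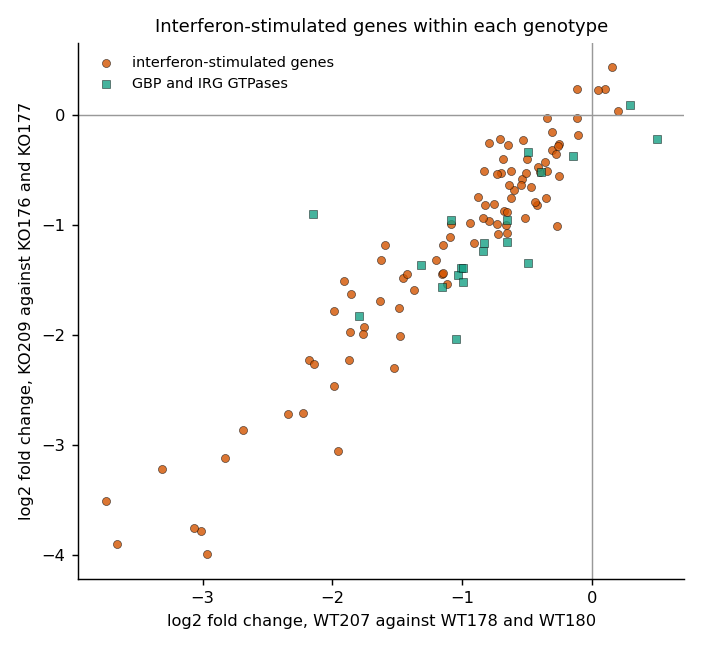
Log2 fold change of 90 ISGs (circles) and 20 GBP and IRG genes (squares) within WT (x axis, WT207 against WT178 and WT180) and within KO (y axis, KO209 against KO176 and KO177), 1 point a gene. Most points lie below 0 on both axes, with list medians of -0.78 and -0.95 for the ISGs.

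GBPs and IRGs, the interferon-induced GTPases that attack the vacuoles of intracellular parasites, had a median log2 fold change of -1.03. Of 20 tested, 18 had a lower estimate, 1 fell and 0 rose. Irgm1, a regulator of the family that also protects HSC function (chromosome 11, 48861968 to 48871683), was at 122 and 160 CPM against 339, 239, 260 and 314 CPM (log2 fold change -1.04, standard error 0.17, adjusted p = 0.0297). Ifi47 (log2 fold change -0.81, adjusted p = 0.0657), Igtp (-1.0, adjusted p = 0.0822) and Tgtp2 (-1.19, adjusted p = 0.105) did not pass. Tgtp2 has a near-identical copy, and reads that map to both were not counted. Gbp3 was at 45.5 and 49.2 CPM against 125, 77.5, 77.7 and 77.5 CPM (adjusted p = 0.108), with KO176 alone high.

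Nucleic acid sensors had a median of -0.45, with a lower estimate in 22 of 26. By edgeR 0 were called and 11 were lower at an unadjusted p under 0.05 (8.09% of all genes were). DESeq2 called 9 lower (2.58% of all genes) and voomLmFit 10 (4.22%). Ifih1, which encodes the double-stranded RNA sensor MDA5, was at 33.2 and 33.5 CPM against 54.3, 41.6, 42.5 and 66.7 CPM (log2 fold change -0.62, adjusted p = 0.161). Dhx58, the RIG-I-like receptor LGP2, was at 39.2 and 44.0 CPM against 168, 96.1, 89.2 and 158 CPM (log2 fold change -1.62, adjusted p = 0.168). The ubiquitin ligase Trim25, which acts on RIG-I, was at 57.6 and 56.8 CPM against 94.9, 86.7, 71.5 and 86.3 CPM (log2 fold change -0.56, adjusted p = 0.0674). The 2 samples lay below the 4 in each. Trex1, which encodes an exonuclease that degrades DNA in the cytosol, had no count in any library. Reads that fit several genes were not counted, so the lack of counts need not mean a lack of RNA.

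Genes of antigen presentation on MHC class I had smaller estimates of the same sign. Of 25 genes 23 had a lower estimate, 1 fell and 0 rose, and the median was -0.28, or -0.20 with an offset for gene length that is described with the length trend. H2-T22, a non-classical class I molecule recognised by gamma-delta T cells (chromosome 17, 36037128 to 36042747), was at 42.3 and 55.5 CPM against 73.3, 67.7, 79.3 and 90.1 CPM (log2 fold change -0.67, standard error 0.11, adjusted p = 0.0305), and 29.4% of its exon bases overlap another gene. Tap1, the peptide transporter, was at 203 and 257 CPM against 449, 355, 342 and 363 CPM (adjusted p = 0.0618). Psmb8, a subunit of the immunoproteasome, was at 542 and 694 CPM against 1012, 861, 846 and 905 CPM (adjusted p = 0.097). Of 12 class II genes edgeR called 0, with 5 lower at an unadjusted p under 0.05 (8.09% of all genes were). DESeq2 called 1 lower (2.58% of all genes) and voomLmFit 2 (4.22%). The class II median was -0.16, and -0.31 within KO against 0.04 within WT.

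Inflammatory genes outside the interferon lists mostly had lower estimates. Of 30 NF-kB and cytokine targets 22 had a lower estimate, 1 rose, 0 fell, and the median was -0.17. An unadjusted p under 0.05 was reached by 8 with a lower estimate (8.09% of all genes) and 3 with a higher one (10.1%). DESeq2 called 4 lower (2.58% of all genes) and 2 higher (1.60%). Il1r1, the receptor for interleukin-1, was at 37.8 and 33.0 CPM against 22.3, 21.3, 21.8 and 23.3 CPM, clear of the 4 others (log2 fold change 0.67, standard error 0.12, adjusted p = 0.038). Il6ra, the receptor chain for interleukin-6, was at 47.4 and 36.1 CPM against 101, 72.2, 53.8 and 64.5 CPM (log2 fold change -0.79, adjusted p = 0.0514).

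Genes of HSC identity leaned the other way. Of 67 tested, 51 had a higher estimate in KO209 and WT207, 1 rose, 0 fell, and the median log2 fold change was 0.36, with 31 higher at an unadjusted p under 0.05 (10.1% of all genes were). Alcam, an adhesion molecule of the HSC and its niche, was at 26.4 and 27.4 CPM against 12.8, 16.2, 18.6 and 17.6 CPM (log2 fold change 0.73, standard error 0.14, adjusted p = 0.0481). Mecom, a transcription factor of long-term HSCs, was at 27.8 and 27.3 CPM against 10.7, 13.7, 18.6 and 20.3 CPM (log2 fold change 0.85, adjusted p = 0.0602). Txnip, which restrains glucose uptake and keeps HSCs quiescent, was at 202 and 276 CPM against 115, 159, 161 and 163 CPM (log2 fold change 0.66, adjusted p = 0.0582). Mecom and Txnip did not pass, although in both the 2 samples lay above the 4. Over the HSC identity list, the median estimate for genotype (KO over WT) in the same model was -0.43, against 0.36 for number range. The list therefore differed by genotype as well as by number. Its mean deviation, taken as for the ISGs, was -0.02 in KO209 and 0.38 in WT207. It was -0.46 in KO176, -0.23 in KO177, 0.20 in WT178 and 0.13 in WT180. KO209 thus lay above KO176 and KO177 but below WT178 and WT180.

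Mllt3, a chromatin reader that maintains HSCs, followed genotype as well as number, with 21.5 CPM in KO209 and 39.0 CPM in WT207 against 12.5, 16, 21.4 and 23.2 CPM (log2 fold change 0.70, adjusted p = 0.0523). Procr, the surface receptor EPCR of dormant HSCs, was at 51.7 and 58.8 CPM against 18.8, 30.4, 43.3 and 38.4 CPM (log2 fold change 0.80, adjusted p = 0.121). Hlf, a factor restricted to HSCs and early progenitors, was at 45.2 and 51.1 CPM against 22, 32.4, 35.8 and 35.3 CPM (log2 fold change 0.63, adjusted p = 0.0934). KO176 was the lowest sample for each of these genes. The list median was 0.42 within KO and 0.24 within WT, and with single samples left out it ran from 0.21 to 0.38. By DESeq2 17 genes of the list rose (1.60% of all genes did) and 3 fell (2.58%). The genes of the list that leaned lower numbered 16, of which 5 had an unadjusted p under 0.05 (8.09% of all genes had). Among the 16 were Ly6a (log2 fold change -1.29), Itga2b (-0.53) and Slamf1 (-0.26). Summed over the list, levels overlapped, at 7291 to 8644 CPM in KO209 and WT207 and 6621 to 8769 CPM in the other samples.

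Most multipotent progenitor genes had lower estimates in KO209 and WT207. Of 20 progenitor genes 16 had a lower estimate, 2 fell, among them Irf8, 0 rose, and the median was -0.48. Spi1, which encodes the myeloid factor PU.1, was at 344 and 372 CPM against 540, 485, 469 and 490 CPM (log2 fold change -0.47, adjusted p = 0.0936). Plac8, abundant in myeloid progenitors and also induced by interferon, was at 710 and 820 CPM against 3014, 1823, 1464 and 2020 CPM (log2 fold change -1.41, adjusted p = 0.124). In both genes the 2 samples lay below the 4.

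Neutrophil and granule markers differed in sign from each other, and edgeR called 0 of the 20. Mpo, myeloperoxidase, was at 2244 and 2088 CPM against 10787, 5178, 4757 and 5352 CPM (log2 fold change -1.54, standard error 0.36, adjusted p = 0.152). Ctsg, cathepsin G of the same granules, was at 329 and 368 CPM against 2029, 1056, 749 and 1069 CPM (log2 fold change -1.74, adjusted p = 0.195). S100a9, of the cytosol of neutrophils, was at 1285 and 1216 CPM against 1141, 1046, 1019 and 788 CPM (log2 fold change 0.33, adjusted p = 0.208). For the list 3 genes in each direction had an unadjusted p below 0.05 (10.1% of all genes higher, 8.09% lower). DESeq2 called 1 lower (2.58% of all genes). With voomLmFit 3 were called higher (3.45% of all genes) and 3 lower (4.22%), Mpo and Ctsg among the latter. The median was 0.18, and -0.13 without WT207.

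The genes called lower at 10 CPM or more were led by Lrmda. Lrmda, a leucine-rich protein known from melanocytes, was at 3.57 and 3.61 CPM against 17.8, 18.5, 36.1 and 20.8 CPM (log2 fold change -2.66, standard error 0.27, adjusted p = 0.00585). Ccl9, a chemokine of myeloid cells, was at 92.1 and 70.7 CPM against 320, 240, 168 and 244 CPM (log2 fold change -1.57, standard error 0.17, adjusted p = 0.00536). Cd300lb, an activating receptor of myeloid cells, was at 6.35 and 5.12 CPM against 21.9, 15.4, 13.4 and 13.1 CPM (log2 fold change -1.47, adjusted p = 0.00536). For all 3 the 2 samples lay below the 4 others.

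Others of the 12 genes with the largest such changes follow. Tmem119, known as a microglial marker, was at 7.12 and 6.03 CPM against 28.5, 20.6, 13 and 19.8 CPM (log2 fold change -1.62, adjusted p = 0.0135). Rab44, a Rab GTPase of secretory granules, was at 59.0 and 46.3 CPM against 193, 121, 99.5 and 119 CPM (log2 fold change -1.33, adjusted p = 0.0266). Mfsd2b, which exports sphingosine-1-phosphate from red cells and platelets, was at 11 and 25.2 CPM against 29.5, 36.1, 47.5 and 44.8 CPM (log2 fold change -1.20, adjusted p = 0.0142). The bicarbonate transporter gene Slc4a8 (log2 fold change -1.42, adjusted p = 0.0491) and the unnamed transcript Gm37352 (-1.37, adjusted p = 0.00536) completed the 12, beside Oas2, Irf8, Rtp4 and Xaf1. Of the 23 monocyte, macrophage and dendritic cell markers edgeR called 0, and the median was -0.12. Below an unadjusted p of 0.05 there were 5 in each direction (10.1% of all genes higher, 8.09% lower). DESeq2 called 1 higher (1.60% of all genes) and 5 lower (2.58%), and voomLmFit 3 higher (3.45%) and 5 lower (4.22%).

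Mast cell and megakaryocyte genes leaned lower, while erythroid genes differed in sign. Of 14 mast cell, basophil and eosinophil markers 10 had a lower estimate, 1 fell and 0 rose, with a median of -0.44. Of 19 platelet and megakaryocyte markers 13 had a lower estimate, 1 fell and 0 rose, with a median of -0.26. With a lower estimate, 5 and 6 of these had an unadjusted p under 0.05 (8.09% of all genes), and 0 with a higher one (10.1%). Gata1, the factor that directs all 3 of these lineages (chromosome X, 7959260 to 7978071), was at 25.0 and 31.7 CPM against 54.2, 52.0, 62.6 and 58.5 CPM (log2 fold change -1.01, standard error 0.11, adjusted p = 0.00386). Cpa3, a carboxypeptidase of mast cells and their progenitors (chromosome 3, 20215620 to 20242181), was at 80.7 and 101 CPM against 171, 202, 206 and 189 CPM (log2 fold change -1.09, standard error 0.12, adjusted p = 0.00386). Gp5, a platelet glycoprotein, was at 25.7 and 39.3 CPM against 37.5, 48.5, 60.6 and 61.8 CPM (log2 fold change -0.69, adjusted p = 0.0481). Gata1 and Cpa3 separated the ranges without overlap, while Gp5 overlapped and was lower in KO than in WT within each range. Pf4, platelet factor 4, was at 17.8 and 48.2 CPM against 37.9, 57.8, 77.6 and 78.5 CPM (log2 fold change -1.04, adjusted p = 0.101).

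Hemoglobin and heme genes rose from low levels. Hba-a1, an alpha globin, was at 25.5 and 21.4 CPM against 10.6, 13.4, 5.81 and 10.5 CPM (log2 fold change 1.23, standard error 0.21, adjusted p = 0.0438). Hbb-bs, a beta globin, was at 5.24 and 4.28 CPM against 1.64, 2.13, 1.03 and 2.06 CPM (log2 fold change 1.46, adjusted p = 0.0266), and Hbb-bt gave 1.04 (adjusted p = 0.0266). Alas2, the first enzyme of heme synthesis in red cells, was at 1.98 and 1.19 CPM against 0.374, 0.615, 0.263 and 0.206 CPM (log2 fold change 2.12, adjusted p = 0.0131). Hba-a2 was the fifth, with a log2 fold change of 1.68 (adjusted p = 0.0404). Paired globin genes are close copies, and reads that map to several places were not counted. Of 17 erythroid markers 5 rose (0.234% of all genes did), all of this kind, and 1 fell (0.249% of all), which was Gata1.

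The plot of HSC identity, progenitor and lineage genes gives the levels of these groups by sample.

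**Figure D3:**
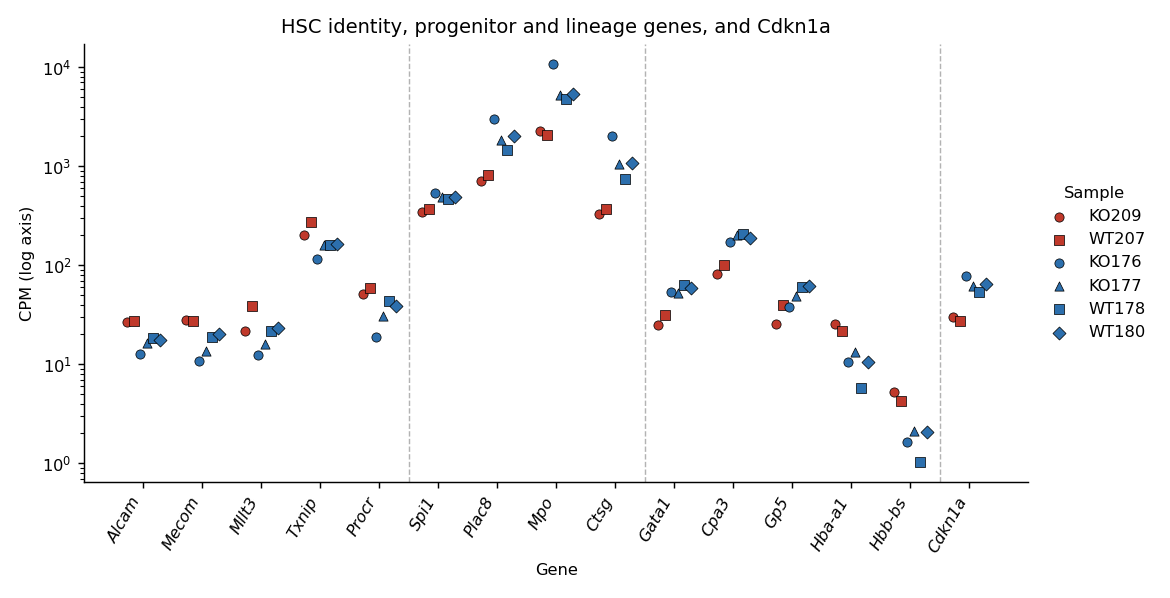
Levels of 15 genes in the 6 samples, in CPM on a log axis, 1 point a sample, red for KO209 and WT207 and blue for the 4 other samples, with dashed lines between HSC identity genes, progenitor and granule genes, lineage genes and Cdkn1a. Red points lie above the blue ones in Alcam, Mecom, Txnip, Procr and the globins and below them from Spi1 to Cpa3 and in Cdkn1a.

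Among cell cycle inhibitors Cdkn1a fell. Cdkn1a, which encodes the CDK inhibitor p21 and responds to p53 and to interferon (chromosome 17, 29090976 to 29100727), was at 29.7 and 27.2 CPM against 76.9, 60.9, 53.6 and 63.9 CPM (log2 fold change -1.16, standard error 0.14, adjusted p = 0.00536). Cdkn1c, which encodes p57, a keeper of HSC quiescence, was at 10.2 and 11.2 CPM against 3.58, 5.36, 8.23 and 7.75 CPM (log2 fold change 0.83) and did not pass by edgeR (adjusted p = 0.0963), while DESeq2 gave an adjusted p of 0.0095. On the list of p53 targets and inhibitors edgeR called Cdkn1a alone, and the median over 29 genes was 0.06. DESeq2 called 2 of the list higher (1.60% of all genes) and 2 lower (2.58%), and voomLmFit 3 higher (3.45%) and 2 lower (4.22%). Of 91 cell division genes 43 had a higher and 48 a lower estimate, with 0 called and a median of -0.04, and of 71 replication genes 54 were lower, with 0 called and a median of -0.10. Below an unadjusted p of 0.05 there were 5 cell division genes with a higher and 9 with a lower estimate and 1 and 6 replication genes. Over all genes 10.1% were higher and 8.09% lower at that p, so these counts lay near or below the background. DESeq2 called 0 cell division genes and 1 replication gene, which was lower (2.58% of all genes). Mcm7, of the replicative helicase, was at 535 and 582 CPM against 833, 704, 655 and 624 CPM (adjusted p = 0.216).

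Called genes that rose at 10 CPM or more numbered 8 without overlap between the samples. Rps6ka3, a kinase downstream of ERK, was at 20.9 and 19.0 CPM against 9.92, 10.1, 12 and 10.1 CPM (log2 fold change 0.93, standard error 0.14, adjusted p = 0.0166). Syne2, a giant protein that ties the nucleus to the cytoskeleton, was at 28.6 and 33.1 CPM against 13.2, 17.7, 20.1 and 19.1 CPM (log2 fold change 0.82, adjusted p = 0.0296). Tgm2, a transglutaminase, was at 25.0 and 40.7 CPM against 15.5, 16.4, 24 and 23.4 CPM (log2 fold change 0.71, adjusted p = 0.0266), and 22% of its exon bases overlap another gene. Plekha5 (log2 fold change 0.80, adjusted p = 0.0428) and Camkk1, a kinase upstream of AMPK (0.70, adjusted p = 0.0472), stood beside Hba-a1, Alcam and Il1r1. With the length offset described next Syne2 had an adjusted p of 0.0844, Plekha5 0.0599 and Alcam 0.0576.

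Differences between the ranges followed the length of the transcript. Among 9625 genes at 8 CPM or more in 5 equal bins, the median log2 fold change was -0.15 in the bin of genes with the shortest exon sequence (78 to 2370 bases), -0.08, -0.04 and 0.03 in the next 3 bins, and 0.12 in the bin with the longest (7464 bases or more). Spearman's rho across these genes was 0.38, and it was 0.34 within KO and 0.33 within WT. Genes are not independent replicates and share the depth and composition of the same 6 samples, so no p is given. The mean exon length behind a count was 4424 and 4492 bases in WT207 and KO209 and 4270 to 4327 bases in the 4 others (exact permutation test over the 15 assignments, two-sided p = 0.1333, the smallest this design allows). An offset fitted to this trend in each sample brought rho to 0.01 and called 90 genes (0.467%), 48 higher (0.249%) and 42 lower (0.218%), with 73 of them among the 93.

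**Figure D4:**
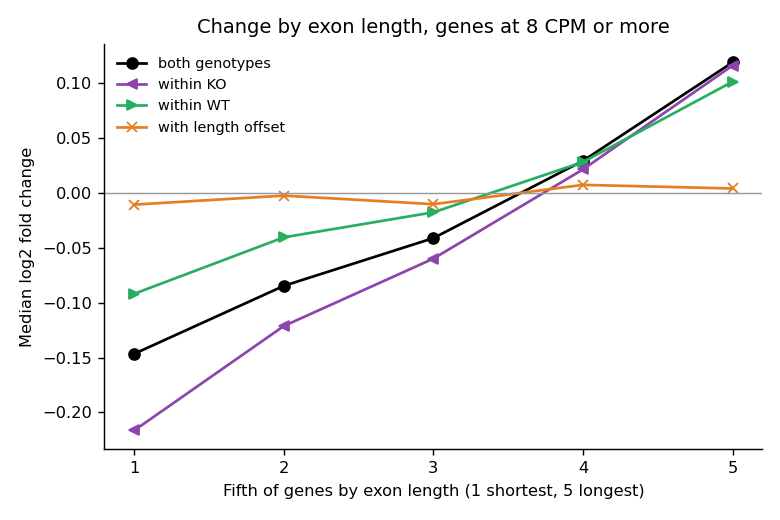
Median log2 fold change of KO209 and WT207 over the 4 other samples (y axis) in 5 equal bins of 9625 genes by exon length (x axis, 1 shortest), for both genotypes together, within KO, within WT and with the length offset. The medians rise from -0.15 to 0.12, with the same course within each genotype, and lie near 0 with the offset.

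Subunits of oxidative phosphorylation, with a median exon length of 1831 bases, had a lower estimate in all 43 tested genes and a median of -0.26. Within KO the median was -0.43 and within WT -0.11. In the test of interaction with genotype 6 of the 43 had an unadjusted p under 0.05 (3.03% of all genes did). By edgeR 0 were called and 24 had an unadjusted p under 0.05 (8.09% of all genes were lower at that p). DESeq2 called 3 lower (2.58% of all genes) and voomLmFit 16 (4.22%). With the length offset the median was -0.14 and 4 were higher. Ndufb8, of respiratory complex I, was at 158 and 206 CPM against 297, 239, 255 and 246 CPM (log2 fold change -0.52, adjusted p = 0.12). Uqcrq, of complex III, was at 149 and 178.3 CPM against 289, 225, 214 and 210 CPM (log2 fold change -0.51, adjusted p = 0.133). Proteasome subunits had a lower estimate in 31 of 31, with a median of -0.21, or -0.12 with the offset. Of these, 0 were called by edgeR, 2 by DESeq2 (2.58% of all genes fell) and 4 by voomLmFit (4.22%). Neutrophil and granule markers (median exon length 1472 bases) had a median of 0.18, which was -0.09 within KO, 0.26 within WT and 0.29 with the offset. Cytosolic ribosomal protein genes, a group added after the data were seen, had a lower estimate in 80 of 81, with 0 called by edgeR. With a lower estimate, 24 had an unadjusted p under 0.05 (8.09% of all genes). The median of this group was -0.23, and -0.44 within KO against -0.05 within WT. The part of transcript length in these medians beyond the offset was not tested.

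The offset left the interferon and HSC lists near their values. The median was -0.76 for the ISGs, -1.07 for GBPs and IRGs and 0.40 for HSC identity genes. By edgeR with the offset Irf9, Irgm1, Mndal and H2-T22 kept their call with adjusted p = 0.0111, 0.0295, 0.0387 and 0.0452. Rtp4 and Oas2 had 0.0733, Xaf1 0.0774 and Irf8 0.0671. The log2 fold changes of these genes were then -1.59 for Rtp4, -1.85 for Oas2, -1.45 for Xaf1 and -1.83 for Irf8. Called ISGs numbered 2 with the offset and 5 without it.

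In the remaining lists edgeR called no gene. MYC targets and ribosome biogenesis genes had a lower estimate in 34 of 42, with 0 called and a median of -0.18. Myc itself was at 598 and 528 CPM against 810, 727, 711 and 630 CPM (log2 fold change -0.35, adjusted p = 0.152). Of the apoptosis regulators 0 of 39 passed, with a median of -0.05 that was 0.03 with the length offset, with Bcl2, the survival factor, at 104 and 101 CPM against 192, 174, 138 and 134 CPM (log2 fold change -0.62, adjusted p = 0.0555). Immediate early genes had a median of -0.15 over 37 genes, the unfolded protein response -0.10 over 26 and glycolysis and hypoxia -0.07 over 27, with 0 called in each. The 20 m6A writers, erasers and readers had a median of 0.02 and 0 called. Circadian clock genes were higher in 13 of 15, with 0 called and a median of 0.25, and Nr1d2, the repressor REV-ERB beta, was at 18.7 and 14 CPM against 11.9, 11.7, 11.3 and 12.8 CPM (adjusted p = 0.165). Of 9 tested sex-linked transcripts 0 passed. With a lower estimate, an unadjusted p under 0.05 was reached by 10 of 39 apoptosis genes, 9 of 37 immediate early genes and 9 of 42 MYC targets (8.09% of all genes), and with a higher one by 4 of 15 clock genes (10.1% of all). DESeq2 called 5, 4 and 2 of the first 3 lists lower (2.58% of all genes) and 0 clock genes higher (1.60%). In the unfolded protein response 1 gene in each direction was below an unadjusted p of 0.05, in glycolysis and hypoxia 3 in each direction, among the m6A genes 1 lower and among the sex-linked transcripts 2 higher, and DESeq2 called 1 glycolysis and hypoxia gene in each direction and 0 in the other 3 lists. Eif2s3y and Ddx3y of the Y chromosome were at 82.1 to 106 CPM and 37.2 to 50.2 CPM over all 6 samples, so all samples expressed Y-linked genes.

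The plot of list medians orders all of these groups by the size of their difference.

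**Figure D5:**
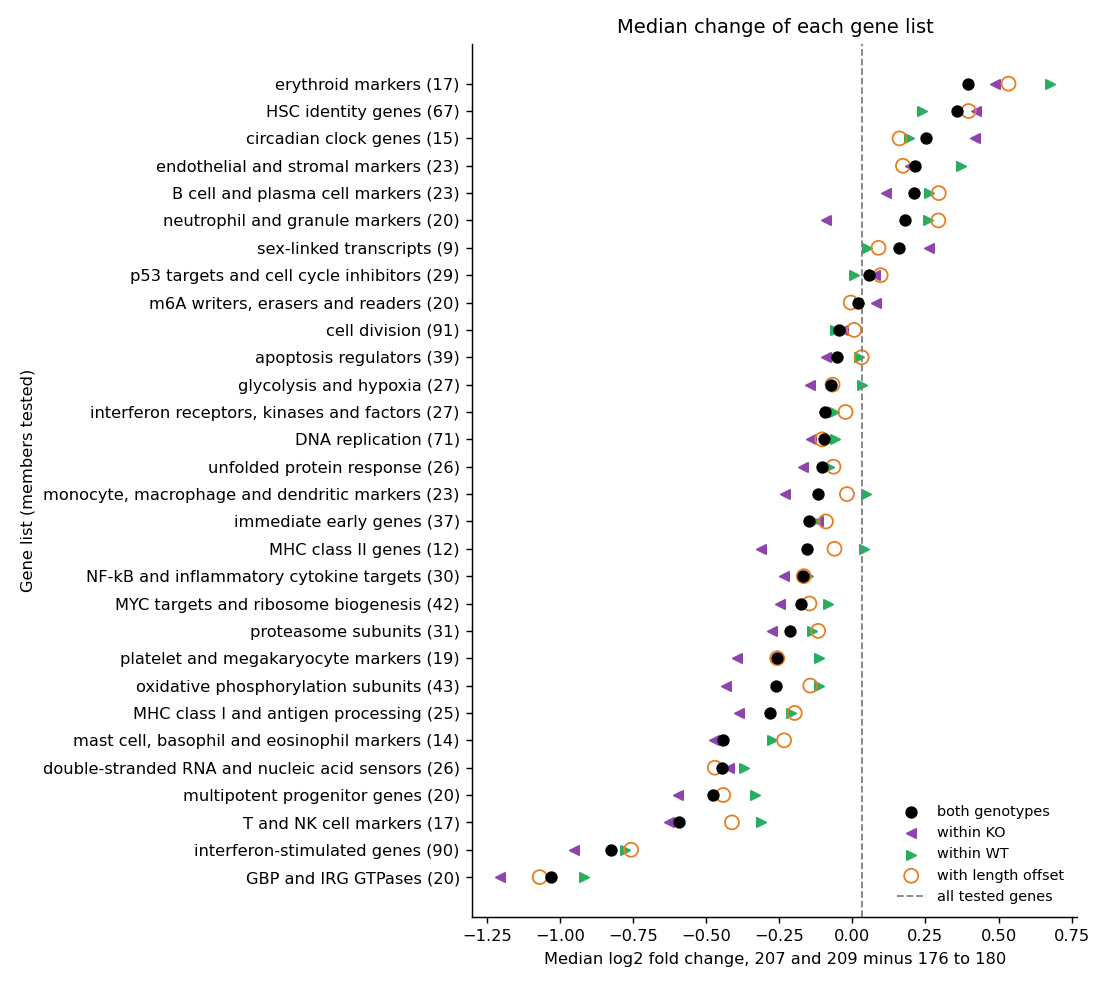
Median log2 fold change of KO209 and WT207 over the 4 other samples (x axis) for each of 30 gene lists (y axis, members tested in brackets), for both genotypes together, within KO, within WT and with the length offset, and the median of all tested genes as a dashed line. GBPs and IRGs (-1.03) and ISGs (-0.83) lie lowest, and erythroid markers (0.39, but -0.04 with a stricter filter on low counts) and HSC identity genes (0.36) highest.

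Markers of other cells were looked at beside these results, summed over each list. B cell and plasma cell markers reached 1848 to 6774 CPM in KO209 and WT207 and 1221 to 4105 CPM in the 4 others, with Ighm and Igkc as the most abundant and KO209 as the highest sample (list median log2 fold change 0.21). Neutrophil and granule markers were at 11500 to 13619 against 13285 to 25157 CPM. T and NK cell markers were at 542 to 655 against 756 to 795 CPM, most of it Nkg7, which is also expressed in progenitors, at 474 and 587 against 693, 693, 732 and 724 CPM. Monocyte and macrophage markers were at 2036 to 2514 against 2051 to 2911 CPM, endothelial and stromal markers at 686 to 855 against 864 to 1009 CPM. That sum was lower in KO209 and WT207, but most endothelial and stromal markers were not. Of 23 tested, 15 had a higher and 8 a lower estimate, with a median log2 fold change of 0.22. Cd3e, Cd8a, Timd4, Marco, Cdh5 and Gp6 were too low to test, at 9 to 47 counts over all 12 libraries. The part of these cells in the differences above was not tested.

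Immunoglobulin segments made up 13 of the 93 called genes. Igkv6-20 was at 12.6 and 27.1 CPM against 0.117, 0.0659, 0.0718 and 0.268 CPM (log2 fold change 7.18, adjusted p = 1.91e-07). Igkv8-28 was at 15 and 15.8 CPM in KO176 and KO177, at 0.0408 and 0.0239 CPM in KO209 and WT178, and had no count in WT207 and WT180, so that its difference stood in the KO samples. Both were chosen after their values were seen, and reads that map to several similar segments were not counted. Leaving out immunoglobulin and sex-linked genes before the fit raised the called genes to 166.

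Whether number range acted differently in KO and WT was tested as an interaction, and 2 of 19259 genes passed (0.0104%). Both were immunoglobulin light chain segments. Igkv3-7 was at 6.48 CPM in WT207, 6.57 CPM in KO176 and 4.94 CPM in KO177, with no count in the 3 other samples. The other, of the Igkv15 family, was highest in KO209. Of the 90 ISGs 0 passed, and 0 had an unadjusted p under 0.05 (3.03% of all genes did). With number range in the model the genotype term called 88 genes (0.457%), and 13 of the 93 genes called for number range were also called for genotype.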

How the data were processed

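RNA-seq of sorted bone marrow HSCs was re-analysed from the table of counts that the authors deposited. Per the file headers and the submitters' notes, featureCounts 2.0.1 had assigned read pairs to GENCODE genes on mm10 without a strand option and without reads that map to several places or genes, so overlapping genes cannot be told apart. These counts carry no normalization. The cDNA came from a SMARTer low-input kit. The FPKM values named in the paper's methods were not used. Each of the 12 columns had a title of its own in the labels, and 0 columns were left out. Of 55335 genes, 9801 had no read, and mitochondrial genes were among these.

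The 2 libraries of a title number were summed, since nothing says that they are independent, and each pair's counts differed beyond sampling noise (chi-square of 6.23 to 21.9 for each degree of freedom). The 6 sums were tested with edgeR 4.0.16 in R 4.3.3 (robust quasi-likelihood, legacy option off, filterByExpr with minimum count 10 and minimum total 15, TMM), with genotype and number range in the model. A log2 fold change is WT207 and KO209 minus the 4 other samples. Its standard error is the fold change divided by the square root of F. Adjustment was by Benjamini-Hochberg across 19259 genes at a threshold of 0.05. CPM use effective library sizes. Whole-sample values had an exact permutation test. The members and lists were chosen with earlier results of these data known, and lists are described by counts and medians.

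Genes were named by rule: for each direction, up to 12 of the called genes with a mean of 10 CPM and no sample overlap, by size of change, then up to 4 of each list by smallest p (8 for interferon lists), sex-linked transcripts and genes called in the interaction. Others, such as Ifit1, Isg15, Mx1, Stat2, Ly6a, Procr, Hlf, Ifnar1, Ifnar2 and Hba-a2, were added after their values were seen. Alternatives were unsummed libraries, voomLmFit (limma 3.58.1), DESeq2 1.42.0, other scalings and filters, single samples left out, single genotypes and, chosen after seeing the data, a loess offset (span 0.5) for exon length. The scripts were tested on simulated data. Promoters are from RefSeq (GRCm38.p6, the assembly of mm10). Plots used Python 3.11.15 with matplotlib 3.10.9. Certain genes are not reported here.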

Additional observations from a re-analysis of the deposited data

Results flagged for a closer look

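Within the 4 samples with the lower numbers, 1 sample stood apart from the other 3 by Dixon's criterion in 15 of 210 measures (7.14%), where chance gives about 1 in 20 (5%). KO176 was that sample in 11 and WT178 in 4. KO176 was the highest at 125 CPM for Gbp3, 308 CPM for Ifngr1, 27.5 CPM for Slc4a8, 6.85 CPM for Pmaip1, 474 CPM for Nhp2, 1467 CPM for Calr, 577 CPM for Psmb3, 188 CPM for Bid, 10787 CPM for Mpo and 69.6 CPM for Cd68. It was the lowest at 115 CPM for Txnip. WT178 was the highest at 12 CPM for Rps6ka3, 36.1 CPM for Lrmda, 288 CPM for Itga2b and 11.6 CPM for F2rl2.

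The difference between number ranges itself differed between KO and WT for a pair of immunoglobulin segments by edgeR's interaction test. The fitted log2 value was 4.09 for a segment of the Igkv15 family (adjusted p = 0.00124). It was -22.25 for Igkv3-7 (adjusted p = 0.000282), a gene with no count in 3 of 6 samples, so that this value depends on the prior count and is no measure of size.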

How the results depend on the processing

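The design holds 2 samples against 4, and the number of called genes (93) moved with most choices. It was 2864 with the 12 libraries as separate samples, 806 with DESeq2, 219 with no filter, 57 with a stricter filter, 10 without the genotype term, 20 within KO, 4 within WT, 166 without sex-linked and immunoglobulin genes and 561 for a 2-fold change at an unadjusted p of at most 0.05. voomLmFit with the number as a random block called 1478 genes, and 1405 with the library digit as a replicate block too. In their deviations from the group means, libraries of the same digit correlated between -0.484 and 0.443 (median 0.080, against -0.226 for other digits and 0.085 for the same number). The medians hint at something shared by digit, but not every pair exceeded 0.1 and no label gives the digit a meaning, so it was not taken as a pairing. Leaving out 1 sample gave 10 to 173 genes, namely 10 without KO209, 32 without WT207, 42 without WT180, 144 without WT178, 153 without KO176 and 173 without KO177. Of the 93 genes, 88 were also called by DESeq2, 16 without WT207 and 4 without KO209. The interaction gave 16 genes with DESeq2 and 4 with the length offset in place of 2, and the genotype term 13 in place of 88 without the number range term, the last 2 being alternatives chosen after seeing the data. The ISG median of -0.83 stayed between -0.99 and -0.69 in 20 alternatives. The median of MHC class II genes (-0.16) changed sign within WT (0.039), and without 1 sample it ran from -0.353 to 0.0129. The median of apoptosis regulators (-0.05) changed sign within WT (0.0221) and with the length offset (0.0321), and without 1 sample it ran from -0.128 to 0.0134. For glycolysis and hypoxia genes (-0.07) it was 0.033 within WT, and without 1 sample it ran from -0.184 to 0.00588. Medians of the p53, cell division, m6A, B cell, neutrophil and monocyte lists also changed sign in 1 or more alternatives. The median of erythroid markers was -0.0351 with the stricter filter in place of 0.39. Igkv3-7, with no count in 3 samples, changed from 0.75 to -11.04 within KO, and without 1 sample ran from -11.04 (without WT207) to 11.2 (without KO209). The causes were not tested.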
